A study of Mus musculus with 9 samples.

Results

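The genes described here code for the protein subunits of the mitochondrial respiratory chain, complexes I to IV, and of the ATP synthase, complex V. They were taken by symbol: Nduf genes of the a, b, c, s and v series, the Sdh genes a to d, Uqcr genes, Cyc1, Cox4 to Cox8 genes and Atp5 genes. Of the 23183 gene symbols in the data, 85 matched, and the 83 that were above 0 in at least 1 liver are the members. Cox7b2 and Cox8c were listed at 0 in all 9 livers. The samples are bulk liver RNA of 9 male C57BL/6J mice at postnatal day 100, each with its own RNA-Seq library. The ND group (3 mice, numbers 6, 7 and 9) ate a normal diet with 14% fat for 10 weeks. The HFD group (3 mice, numbers 1, 2 and 3) ate a high-fat diet with 60% fat for 10 weeks. The PRF 50 group (3 mice, numbers 3, 9 and 10) ate the same high-fat diet and was given 50 mg/kg per day of PRF, a polymethoxyflavone-rich fraction of Citrus sunki leaves, by mouth over the last 5 weeks. The question addressed by HFD vs ND is what the diet did, and that addressed by PRF 50 vs HFD is what the fraction did under the diet. PRF 50 vs ND shares its mice with both, so the 3 sets of differences are not independent, and they are given side by side.

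In the inner mitochondrial membrane, complex I takes electrons from NADH and complex II takes them from succinate in the citric acid cycle, and both pass them to ubiquinone. Complex III hands them on to cytochrome c, and complex IV transfers them to oxygen. Complexes I, III and IV pump protons, and complex V lets the protons flow back to make ATP. Liver cells are rich in mitochondria, and the chain there also receives the electrons released when fatty acids are oxidized. Some subunits are encoded in mitochondrial DNA. Those genes were not analysed here, so every member is a nuclear gene.

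The subunit genes were among the most abundant in the liver. Levels are given as FPKM (fragments scaled to transcript length and library size), and differences on the scale of log2(FPKM + 1). Of the 83 members, 79 reached a mean of 1 FPKM in all 3 comparisons and were tested, 37 in complex I, 4 in complex II, 9 in complex III, 12 in complex IV and 17 in complex V. The 4 left out, all in complex IV, were Cox4i2, Cox6a2, Cox6b2 and Cox8b. The median level over the 79 was 209 FPKM, at percentile 95.9 of the 10048 genes that reached this mean over the 9 mice. By complex, the median level was 143 FPKM in complex I, 182 in complex II, 380 in complex III, 436 in complex IV and 392 in complex V. The most abundant members were Ndufa4 at 1056 FPKM in complex I, Sdhb at 254 in complex II, Uqcrq at 916 in complex III, Cox6c at 836 in complex IV and Atp5k at 1031 in complex V. Ndufa4 is grouped by its symbol with complex I, although its protein is now placed in complex IV.

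The livers were not alike within their groups. For each gene the mean over the 9 mice was subtracted, and the median of these deviations over the 79 genes was taken in each mouse. It was 0.36 in ND 6, −0.036 in ND 7 and 0.025 in ND 9. In the HFD group it was 0.19 in HFD 1, −0.020 in HFD 2 and −0.041 in HFD 3. The PRF 50 mice were at −0.19 (number 3), −0.25 (number 9) and −0.089 (number 10). All 3 PRF 50 livers were thus below every ND and HFD liver, while ND 6 and HFD 1 stood above the rest of their own groups. ND 6 exceeded ND 7 in 76 of the 79 genes and ND 9 in 74, and it held the highest value of the 9 livers in 66. HFD 1 exceeded HFD 2 in 73 genes and HFD 3 in 74. PRF 50 9 held the lowest value in 46 genes, and PRF 50 3 in 18. Medians over all 79 genes, and their counts at an unadjusted p under 0.05, are also given without ND 6 or HFD 1. Other values are from all mice unless stated otherwise.

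**Figure D1:**
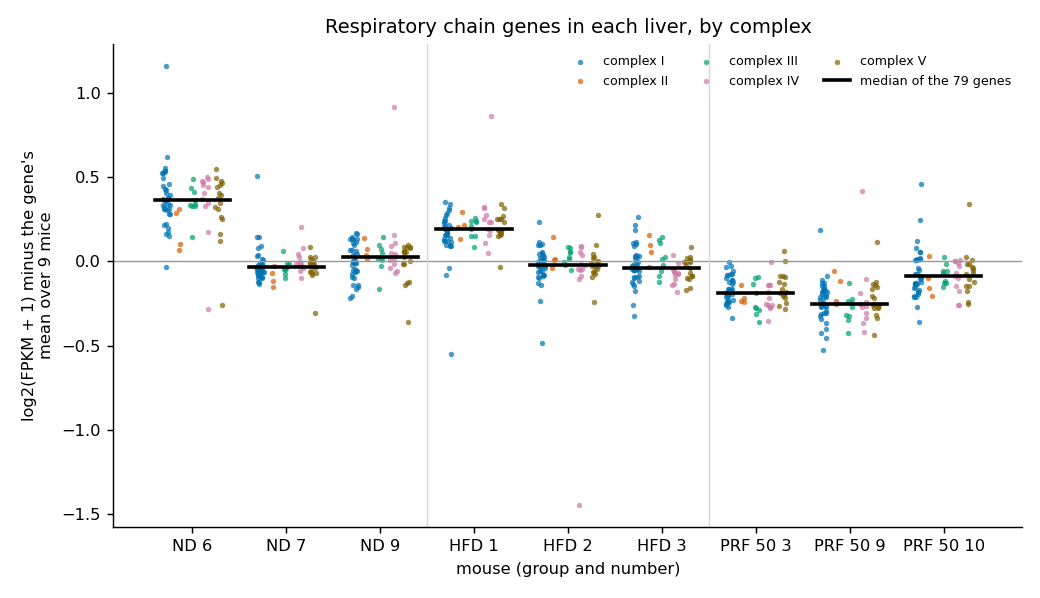
Each point is 1 of the 79 tested respiratory chain genes in 1 liver, as its log2(FPKM + 1) value minus its own mean over the 9 livers, coloured by complex, and black bars are the medians. The median lies at 0.36 in ND 6, at 0.19 in HFD 1 and between −0.25 and −0.089 in the 3 PRF 50 livers.

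Promoter sequence is something the choice by symbol did not use. RefSeq entries (GRCm38.p6) were found for 65 of the 83 members, each with 250 bases before the transcription start. Members without an entry included Atp5a1, Atp5f1, Atp5s, Atp5sl, Cox4i1, Cox4i2, Cox6a2, Cox6c, Cyc1, Ndufa2, Ndufa4l2, Ndufb9, Ndufs1, Sdhc, Uqcrb, Uqcrc2 and Uqcrq. Both strands were searched for the letters GCGCATGC (bound by NRF1), CCGGAAG (ETS factors, GABPA among them), AAGGTCA (estrogen-related receptors), AAGATGGC (YY1) and GGGCGG (SP1). The NRF1 letters of both strands can overlap each other. The NRF1 letters were in 8 of the 65 promoters (12.3%), against 2.32% of all 27025 promoters and 4.82% of those of expressed genes (mean of 1 FPKM or more). The ETS letters were in 11 (16.9%, against 7.05% of all and 14.8% of expressed genes), those of the estrogen-related receptors in 5 (7.69%, against 4.05% and 2.96%) and those of SP1 in 22 (33.8%, against 32.9% and 59.6%). The YY1 letters were in none of the 65, in 1.59% of all promoters and in 2.23% of those of expressed genes. For the genes of mitochondrial ribosome proteins the shares were 11.8% (NRF1), 23.5% (ETS), 4.41% (estrogen-related receptors), 48.5% (SP1) and 5.88% (YY1). For 29 of the 65 members none of these letters was found. A match of letters is a description and not a site of binding. To show the range, a promoter is printed for each complex, that of the member with the smallest p in PRF 50 vs HFD among those with a suitable entry, and then that of Atp5l, a member with NRF1 letters. Stretches annotated as exons were left out, and matches are in capitals. Ndufv1, which carries the NADH-binding site of complex I, has no match in the 199 bases shown (chr19:4012807-4013005, minus strand).
Ndufv1: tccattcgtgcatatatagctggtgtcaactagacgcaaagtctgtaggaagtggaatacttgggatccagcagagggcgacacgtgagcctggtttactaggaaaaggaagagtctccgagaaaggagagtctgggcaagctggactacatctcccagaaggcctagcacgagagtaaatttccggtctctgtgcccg
Sdhb, the iron-sulfur subunit of complex II, has 3 matches to the SP1 letters on the other strand in the stretch shown, and NRF1 letters in the part left out, 54 bases before the start (chr4:140961021-140961202, plus strand).
Sdhb: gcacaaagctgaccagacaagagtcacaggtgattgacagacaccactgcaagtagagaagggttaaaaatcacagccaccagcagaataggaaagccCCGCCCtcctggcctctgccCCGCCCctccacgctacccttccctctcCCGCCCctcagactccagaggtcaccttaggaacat
Uqcrfs1, the Rieske iron-sulfur protein of complex III, has none (chr13:30545363-30545566, minus strand).
Uqcrfs1: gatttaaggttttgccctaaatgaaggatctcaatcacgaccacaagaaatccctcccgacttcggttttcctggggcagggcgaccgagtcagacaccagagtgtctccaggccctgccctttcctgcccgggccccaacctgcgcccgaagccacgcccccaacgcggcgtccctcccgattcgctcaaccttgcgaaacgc
Cox6b1, a complex IV subunit facing the space between the membranes, has none in this stretch and ETS letters in the part left out, 28 bases before the start (chr7:30626152-30626364, minus strand).
Cox6b1: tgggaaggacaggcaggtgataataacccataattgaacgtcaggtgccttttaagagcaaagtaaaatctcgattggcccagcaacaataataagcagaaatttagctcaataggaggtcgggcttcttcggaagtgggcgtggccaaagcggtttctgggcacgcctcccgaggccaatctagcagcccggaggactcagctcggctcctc
Atp5g3, which codes for the c subunit that forms the rotating ring of complex V, has the letters of the estrogen-related receptors on the other strand, 52 bases before the start (chr2:73911327-73911576, minus strand).
Atp5g3: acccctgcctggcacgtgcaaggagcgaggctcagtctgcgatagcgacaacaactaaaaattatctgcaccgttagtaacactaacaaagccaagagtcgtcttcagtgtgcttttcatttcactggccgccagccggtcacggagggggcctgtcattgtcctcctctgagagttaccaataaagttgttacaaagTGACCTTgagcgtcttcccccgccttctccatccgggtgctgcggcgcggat
Atp5l, a subunit in the membrane part of complex V, has NRF1 letters 240 bases and ETS letters 212 bases before the start, both on the other strand (chr9:44920752-44920992, minus strand). Letters of the estrogen-related receptors begin 13 bases before the start and run past the end of the stretch shown, so they are not in capitals.
Atp5l: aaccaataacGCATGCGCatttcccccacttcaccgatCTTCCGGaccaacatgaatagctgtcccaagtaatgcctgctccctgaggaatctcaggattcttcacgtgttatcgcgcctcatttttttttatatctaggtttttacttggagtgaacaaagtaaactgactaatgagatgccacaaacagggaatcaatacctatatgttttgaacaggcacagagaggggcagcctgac

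Between PRF 50 and HFD, nearly every subunit gene was at a lower level in the PRF 50 livers, by a small amount, and a single member passed the test. The median difference over the 79 genes was −0.21 (−13.8%), against −0.015 over the 10084 genes tested, and 74 of the 79 differences were below 0 (93.7%, against 53.0% of all genes). With limma's adjusted p, 1 member was called, Ndufs1, while 3.59% of all genes were. At an unadjusted p under 0.05, 26 members were lower and 0 higher, which is 32.9% of the members against 11.8% of all genes in that direction. All 3 PRF 50 values lay below all 3 HFD values in 38 members, 48.1% against 15.3% of all genes. Without HFD 1, 0 members passed the adjusted p (215 of all 10130 genes did), 12 were lower at an unadjusted p under 0.05 (15.2%, against 10.9% of all genes in that fit), and the median was −0.15. The second count was also 12 without PRF 50 3 (15.2%, against 9.94% of all genes) and without PRF 50 9 (15.2%, against 10.4%), and it was 16 without HFD 2 (20.3%, against 8.89%). The adjusted count was 0 with any 1 of the 6 mice left out, and over all genes it fell from 362 to between 15 and 242. Since these are bulk samples, fewer cells that express a gene and less of its RNA per cell cannot be told apart.

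Between HFD and ND, the subunit genes were close to level. The median difference was −0.062 (−4.19%), against −0.0091 over the 9978 genes tested. It was 0.064 without ND 6 and 0.017 after a trend on transcript length and GC content had been removed. Further below 0, it was −0.13 without ND 7, −0.12 without ND 9 and −0.14 without HFD 1. Its size and direction were thus not stable. With all 6 mice, 61 of the 79 differences were below 0 (77.2%, against 51.7% of all genes), and without ND 6 16 were. Without ND 6 the medians of all 5 complexes were above 0, at 0.067, 0.13, 0.085, 0.011 and 0.055 for complexes I to V. No member passed limma's adjusted p (0 of 79, against 1.33% of all genes). At an unadjusted p under 0.05, 1 member was higher (7.82% of all genes were), Ndufs1, and 1 was lower (7.26% of all genes), Ndufa4l2. With 1 mouse left out, the first count was 0 or 1 and the second 0 to 2. The 95% confidence intervals of 73 of the 79 differences lay within a 1.5-fold change in either direction, and those of 77 within 2-fold. Over all 9978 genes tested these counts were 7161 and 9312.

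Between PRF 50 and ND, the median was −0.29 (−18.3%), against −0.031 over the 10051 genes tested, and 77 of the 79 differences were below 0 (97.5%, against 56.6% of all genes). With quantile normalization the median was −0.15. With limma's adjusted p, 0 of 79 members were called, against 0.458% of all genes. At an unadjusted p under 0.05, 12 members were lower and 0 higher, 15.2% of the members against 6.44% of all genes. The PRF 50 values lay below all ND values in 36 members, 45.6% against 11.8% of all genes. Without ND 6, 4 members were lower at an unadjusted p under 0.05, which is 5.06% of the members and also 5.06% of all genes, and the median was −0.17. The count was 1 without PRF 50 3 (1.27%, under the 5.03% of all genes) and 2 without PRF 50 9 (2.53%, under 4.67%), but 21 without ND 7 (26.6%, against 5.2%). The excess over all genes in this count thus depended on which mice were included. Of the 79 genes, 58 had the order of group means ND above HFD above PRF 50, and 16 had HFD above ND above PRF 50, while without ND 6 these counts were 13 and 59.

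**Figure D2:**
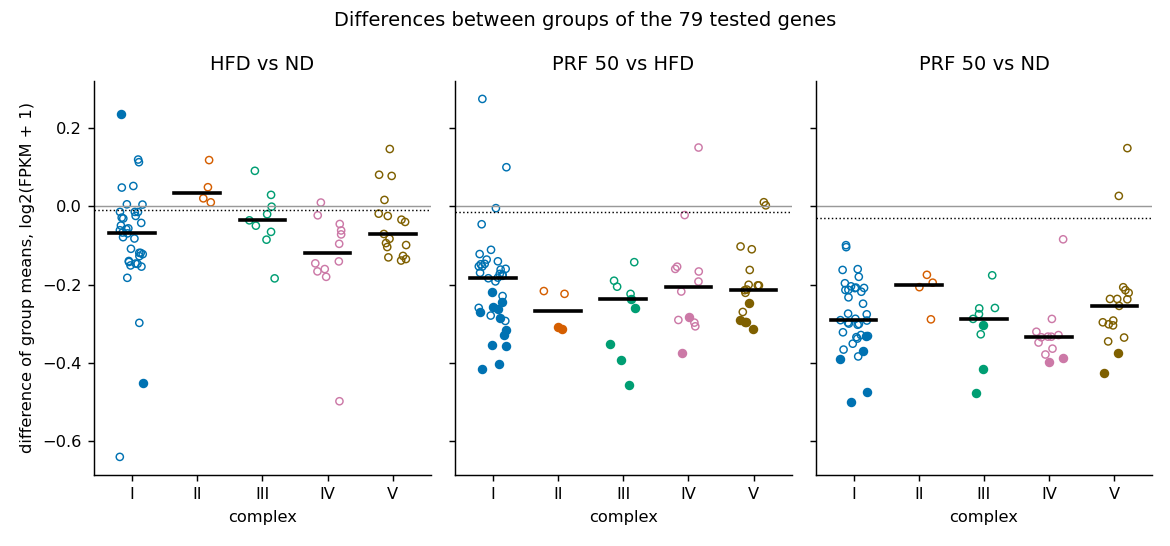
Each point is the difference between group means of 1 gene on the log2(FPKM + 1) scale, by complex, in the 3 comparisons; filled points have an unadjusted p under 0.05 in limma, black bars are medians of a complex and dotted lines are the medians of all genes tested. In PRF 50 vs HFD the medians of the 5 complexes lie between −0.27 and −0.18, while in HFD vs ND they lie between −0.12 and 0.034.

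Complex I, the NADH dehydrogenase, held the member with the smallest p. Ndufs1, its largest subunit, which carries iron-sulfur clusters (chr1:63143596-63176833, minus strand), had log2(FPKM + 1) values of 5.62, 5.57 and 5.72 in ND mice 6, 7 and 9. They were 5.89, 5.89 and 5.84 in HFD mice 1, 2 and 3, and 5.42, 5.48 and 5.48 in PRF 50 mice 3, 9 and 10. The 3 groups did not overlap, with HFD highest, ND between and PRF 50 lowest, and neither ND 6 nor HFD 1 stood apart for this gene. Ndufs1 fell by 0.41 in PRF 50 vs HFD (SE 0.075, 95% interval −0.59 to −0.24, adjusted p = 0.0351 with limma), from a mean of 57.6 to 43.0 FPKM, which is −25.0% on this scale. The call is a narrow one. The adjusted p was above 0.05 when any 1 mouse of either group was left out. HFD vs ND gave 0.23 (SE 0.096, adjusted p = 0.31), and PRF 50 vs ND −0.18 (SE 0.098, adjusted p = 0.489).

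Ndufa10, an accessory subunit of complex I, was at 6.72, 6.34 and 6.43 in the ND livers, 6.64, 6.49 and 6.70 in the HFD livers and 6.21, 6.24 and 6.17 in the PRF 50 livers. The PRF 50 mice were below all others, and ND 6 was the highest. Its difference in PRF 50 vs HFD was −0.40 (SE 0.090, adjusted p = 0.0603), just outside the threshold. Ndufb8, an accessory subunit of the membrane arm, was at 8.06, 7.84 and 7.86 in ND, 7.85, 7.72 and 7.65 in HFD and 7.36, 7.35 and 7.56 in PRF 50. It had the smallest p of all members in PRF 50 vs ND, with a difference of −0.50 (SE 0.12, adjusted p = 0.154), and the difference from HFD was −0.32 (SE 0.11, adjusted p = 0.154). Of the core subunits, Ndufv1, at the entry point for electrons from NADH, had group means of 6.64 ± 0.18 in ND, 6.62 ± 0.10 in HFD and 6.36 ± 0.043 in PRF 50 (SD, n = 3 each). Its PRF 50 values were below all HFD and ND values, and the difference from HFD of −0.26 did not pass (adjusted p = 0.162).

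Over all 37 tested genes of complex I, the median difference was −0.067 in HFD vs ND, −0.18 in PRF 50 vs HFD and −0.29 in PRF 50 vs ND. The second of these was −0.083 with quantile normalization. At an unadjusted p under 0.05, 12 of the 37 were lower in PRF 50 than in HFD (32.4%, against 11.8% of all genes) and 5 were lower than in ND (13.5%, against 6.44%). Ndufb6, an accessory subunit, was among the latter, with −0.33 (SE 0.12, adjusted p = 0.329). The most abundant, Ndufa4, had means of 10.18 ± 0.17 in ND, 10.05 ± 0.16 in HFD and 9.88 ± 0.17 in PRF 50 (SD, n = 3 each), and its groups overlapped. Ndufs5 varied most within complex I, from 5.90 in ND 6 down to 4.195 in HFD 1, and with 0.27 it had the highest difference of all members in PRF 50 vs HFD (adjusted p = 0.612). Ndufs5 is named for its spread, after its values were seen.

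Complex II, succinate dehydrogenase, is the enzyme that the chain shares with the citric acid cycle, and all 4 of its subunits are nuclear. Sdha, which binds FAD and oxidizes succinate (chr13:74322254-74350280, minus strand), was at 7.59, 7.45 and 7.60 in the ND livers. It was at 7.65, 7.66 and 7.68 in HFD and at 7.28, 7.40 and 7.36 in PRF 50. The HFD mice lay close together above every ND mouse, and the PRF 50 mice lay below every ND mouse. The difference in PRF 50 vs HFD was −0.31 (SE 0.086, adjusted p = 0.0995). Sdhc, a membrane anchor of the complex, had means of 7.47 ± 0.17 in ND, 7.49 ± 0.10 in HFD and 7.18 ± 0.058 in PRF 50 (SD, n = 3 each), with a difference from HFD of −0.31 (SE 0.095, adjusted p = 0.128). Sdhd, the other anchor, differed from HFD by −0.22 (adjusted p = 0.349) without overlap. Sdhb, which passes the electrons on through iron-sulfur clusters, differed by −0.22 (adjusted p = 0.362), and its groups overlapped, with PRF 50 10 at 8.02 and HFD 2 at 7.95. The median of the 4 genes was 0.034 in HFD vs ND, −0.27 in PRF 50 vs HFD and −0.20 in PRF 50 vs ND. The first of these was −0.034 without ND 7 and −0.043 without HFD 1, and the second was −0.14 with quantile normalization.

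In complex III, the cytochrome bc1 complex, 5 of 9 genes were lower in PRF 50 than in HFD at an unadjusted p under 0.05 (55.6%, against 11.8% of all genes). Uqcr10, a small subunit (chr11:4701973-4704342, minus strand), was at 9.04, 8.53 and 8.57 in ND, 8.79, 8.63 and 8.65 in HFD and 8.19, 8.13 and 8.40 in PRF 50. All PRF 50 values were below all others, and ND 6 was far above the rest. Uqcr10 had the largest difference of the members in PRF 50 vs HFD, −0.46 (SE 0.11, 95% interval −0.72 to −0.19, adjusted p = 0.0803), and −0.48 (SE 0.17, adjusted p = 0.314) in PRF 50 vs ND. Uqcrfs1, the Rieske protein whose promoter is printed above, was at 7.82, 7.47 and 7.42 in ND, 7.62, 7.47 and 7.42 in HFD and 7.12, 7.06 and 7.28 in PRF 50. Its difference from HFD was −0.35 (SE 0.10, adjusted p = 0.116). Uqcrc2, a core protein of the matrix side, differed by −0.39 (SE 0.11, adjusted p = 0.102). Here the PRF 50 mice were at 6.96, 6.95 and 7.21, and the last of these was above ND 7 at 7.20. Cyc1, the cytochrome c1 that hands electrons to cytochrome c, had means of 7.47 ± 0.19 in ND, 7.42 ± 0.074 in HFD and 7.18 ± 0.10 in PRF 50 (SD, n = 3 each). The core protein Uqcrc1 differed from HFD by −0.26 (adjusted p = 0.193), and Uqcrq, the most abundant of the complex, by −0.21 (adjusted p = 0.42). Over the 9 genes the median was −0.036 in HFD vs ND, −0.24 in PRF 50 vs HFD and −0.29 in PRF 50 vs ND. The second of these was −0.15 with quantile normalization. In both comparisons with PRF 50 all 9 differences were below 0.

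In complex IV, cytochrome c oxidase, Cox6b1 showed the clearest separation (chr7:30616861-30626151, minus strand). Its values were 9.78, 9.31 and 9.31 in ND, 9.58, 9.38 and 9.37 in HFD and 9.06, 9.07 and 9.07 in PRF 50. The PRF 50 livers were nearly identical and below all others, while ND 6 and HFD 1 were the highest of their groups. The difference was −0.37 from HFD (SE 0.11, adjusted p = 0.115) and −0.40 from ND (SE 0.16, adjusted p = 0.375). Cox5b, a subunit on the matrix side, had means of 8.83 ± 0.30 in ND, 8.78 ± 0.082 in HFD and 8.499 ± 0.068 in PRF 50 (SD, n = 3 each), and differed from HFD by −0.28 (adjusted p = 0.179). Cox8a, a small membrane subunit, differed by −0.29 from HFD (adjusted p = 0.285) and by −0.39 from ND (adjusted p = 0.392). Cox4i1, the largest nuclear subunit and the one that contacts the catalytic core, had the smaller difference of −0.16 in both PRF 50 vs HFD and HFD vs ND (adjusted p = 0.539 and 0.729), and its PRF 50 and HFD values overlapped. Cox5a was at −0.15 in PRF 50 vs HFD (adjusted p = 0.422) and −0.18 in HFD vs ND (adjusted p = 0.611). Cox6c, the most abundant of the complex, differed by −0.31 from HFD, and the groups overlapped (adjusted p = 0.357). The median over the 12 tested genes was −0.12 in HFD vs ND, −0.20 in PRF 50 vs HFD and −0.33 in PRF 50 vs ND. The second of these was −0.13 with quantile normalization. Of the 12 genes, 2 were lower than HFD at an unadjusted p under 0.05 (16.7%, near the 11.8% of all genes).

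Several complex IV subunits have copies that are used in other tissues, and these were almost absent. The heart and muscle forms Cox6a2 and Cox8b were above 0 in 2 and 1 of the 9 livers, at no more than 0.371 and 1.01 FPKM. Cox4i2, a form known from lung, was above 0 in 4 livers and never above 0.168 FPKM, and Cox6b2, a form of the testis, in 6 livers and never above 1.16 FPKM. Rounded to 1 decimal, the liver forms made up 99.8% or more of the FPKM of their sets in every liver for Cox4i, Cox6a, Cox6b, Cox7b and Cox8. Cox7a1, the muscle form of Cox7a, was present but scattered, from 1.27 in HFD 2 to 3.63 in ND 9 on the log2 scale, with no order by group. Markers of striated muscle summed to between 0.256 and 1.58 FPKM over 8 genes. Of the Cox7a set, Cox7a2 made up 67.2% of the FPKM in ND, 65.9% in HFD and 63.6% in PRF 50 as group means.

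In complex V, Atp5a1 and Atp5b code for the alpha and beta subunits that form the catalytic head. Atp5a1 was at 8.76, 8.57 and 8.73 in ND, 8.83, 8.74 and 8.72 in HFD and 8.46, 8.49 and 8.46 in PRF 50. The PRF 50 livers were below all others, the closest being ND 7. The difference from HFD was −0.29 (SE 0.094, adjusted p = 0.14). Atp5b, which carries the catalytic sites, was at 9.003, 9.13 and 9.20 in PRF 50 and between 9.24 and 9.44 in the other livers, a difference of −0.20 from HFD (adjusted p = 0.387). Atp5f1, the b subunit of the stalk that holds the head in place, differed by −0.29 from HFD (adjusted p = 0.164) and by −0.37 from ND (adjusted p = 0.298). Atp5k, a small membrane subunit and the most abundant of the complex, had means of 10.04 ± 0.36 in ND, 10.12 ± 0.18 in HFD and 9.81 ± 0.035 in PRF 50 (SD, n = 3 each). Atp5e, the epsilon subunit of the central stalk, had overlapping groups with −0.14 in HFD vs ND and −0.16 in PRF 50 vs HFD (adjusted p = 0.767 and 0.551). The median over the 17 tested genes was −0.071 in HFD vs ND, −0.21 in PRF 50 vs HFD and −0.25 in PRF 50 vs ND. The second of these was −0.13 without HFD 1 and also −0.13 with quantile normalization. At an unadjusted p under 0.05, 5 were lower than HFD (29.4%, against 11.8% of all genes) and 2 lower than ND (11.8%, against 6.44%).

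The c ring is coded by the genes Atp5g1, Atp5g2 and Atp5g3, which give the same mature protein. Atp5g3 was the main source in every liver, with 56.8% of the FPKM of the set in ND, 56.6% in HFD and 53.4% in PRF 50 as group means. Its values were 9.71, 9.19 and 9.15 in ND, 9.32, 9.21 and 9.12 in HFD and 8.97, 8.89 and 8.91 in PRF 50, and PRF 50 was below all others (−0.29 from HFD, adjusted p = 0.179). Atp5g1 and Atp5g2 differed from HFD by −0.11 and −0.10, with overlapping groups (adjusted p = 0.613 and 0.713). Reads shared between such close copies, or with processed pseudogenes, cannot be assigned from these data.

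**Figure D3:**
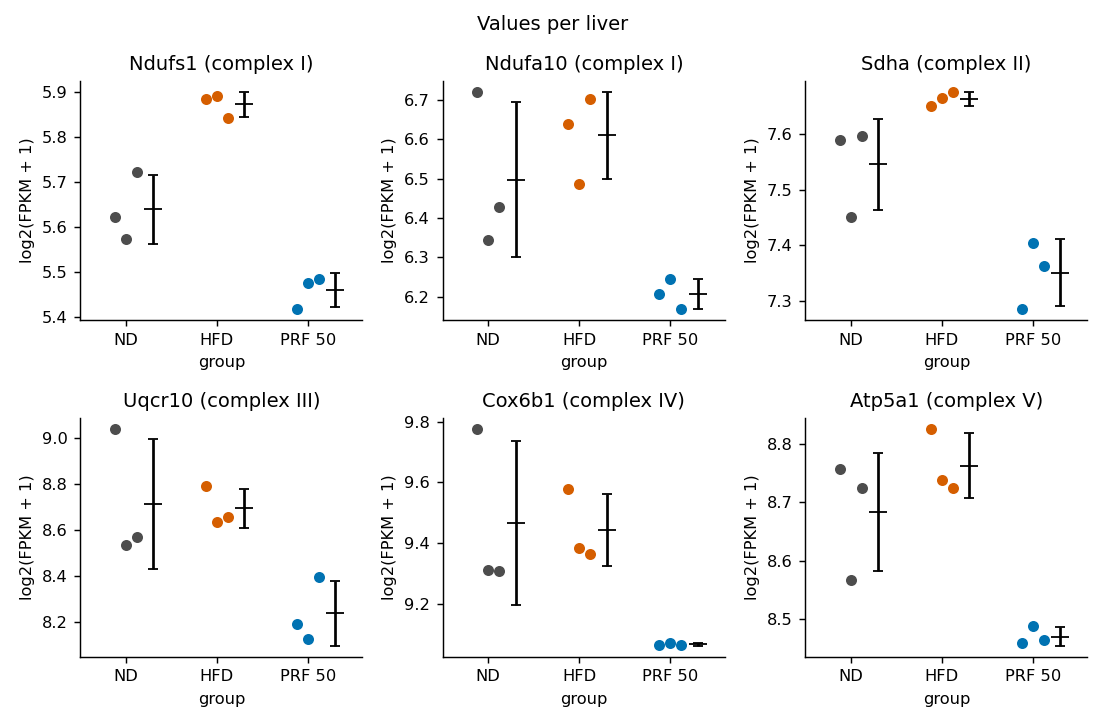
Points are the log2(FPKM + 1) values of each liver for 6 subunit genes, with black marks for the group mean and SD (n = 3), and each panel has its own vertical scale, which does not start at 0. In all 6 the PRF 50 livers lie below the HFD livers, and for Ndufs1 and Sdha the HFD livers also lie above the ND livers.

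Of the members, 4 are given apart because their products are not regular subunits of a complex, while Ndufa4 is one, though of complex IV. Ndufa4l2, a paralog of Ndufa4 known to be induced under low oxygen, was near the test's limit of abundance with a mean of 1.498 FPKM. Its values were 1.46, 1.80 and 1.43 in ND, 1.22, 1.16 and 0.97 in HFD and 1.22, 1.49 and 0.94 in PRF 50. HFD was below ND without overlap, a difference of −0.45 (SE 0.14, adjusted p = 0.21) that was −0.70 with a pseudocount of 0.1, and the difference in PRF 50 vs HFD was 0.10 (adjusted p = 0.784). Cox7a2l, which binds chain complexes together in supercomplexes, differed by −0.023 in PRF 50 vs HFD (adjusted p = 0.944). Atp5s, a coupling factor, differed by 0.0022 (adjusted p = 0.996), and Atp5sl, named for its likeness to Atp5s, by 0.010 (adjusted p = 0.979). Whether these genes differ from the other members was not tested. With the 4 left out, the median in PRF 50 vs HFD was −0.22.

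Many of the members have short transcripts, and the level of short transcripts varied between the livers in general. The median transcript length was 748 bases over 77 members with an annotated length, against 2534 over 9672 expressed genes. Over the 175 genes of 400 to 600 bases, members included, the median deviation was 0.32 in ND 6, 0.17 in HFD 1 and −0.23 in PRF 50 9, and between −0.0962 and −0.0145 in the other 6 livers. Over the 2874 genes above 3500 bases it was −0.10 in ND 6. The members were compared with other genes of their length. From 400 to 800 bases, the median difference in PRF 50 vs HFD was −0.20 over 40 members and −0.030 over 450 other genes. In PRF 50 vs ND it was −0.33 over the members and −0.12 over the others. In HFD vs ND it was −0.10 over the members and −0.062 over 444 others. With a smooth trend on length and GC content removed in each liver, the median difference of 77 members was −0.15 in PRF 50 vs HFD and −0.16 in PRF 50 vs ND, and 26 and 13 members were lower at an unadjusted p under 0.05 (33.8% and 16.9%, against 10.7% and 6.33% of all genes). The members of 2000 to 3500 bases, 6 genes with Ndufs1 and Sdha among them, had a median of −0.30 in PRF 50 vs HFD, where other genes of that length had −0.014.

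**Figure D4:**
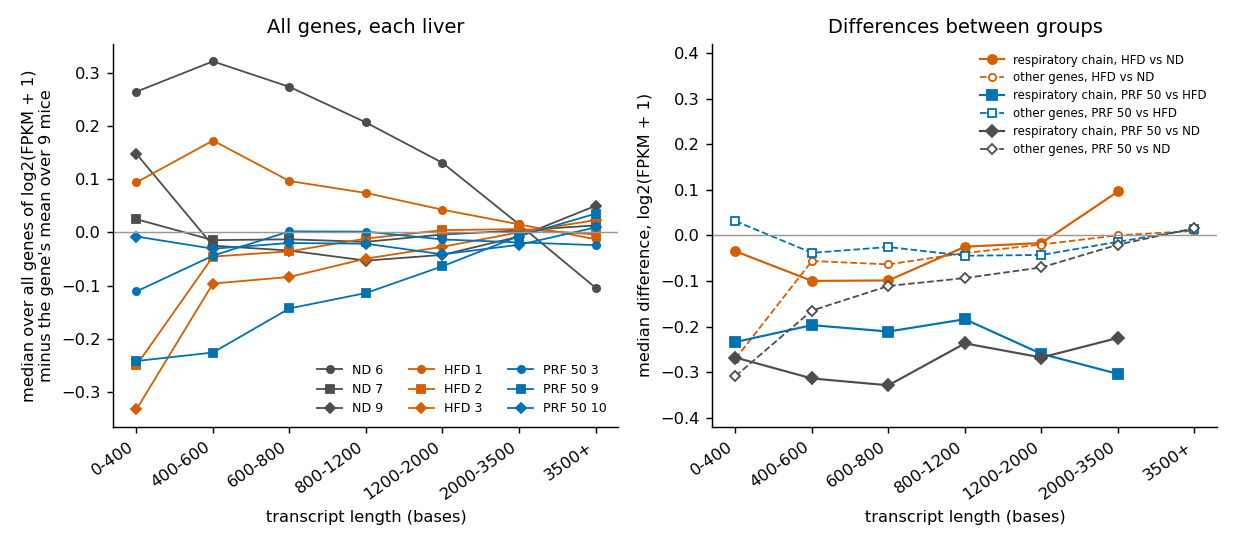
The left panel shows, for each liver, the median over all genes of log2(FPKM + 1) minus the gene's mean over 9 livers in classes of transcript length, and the right panel the median difference between groups over the members (solid) and over other genes (dashed) in the same classes, of which the longest holds no members and the others hold between 2 and 24. ND 6 and HFD 1 lie high among short transcripts, and in PRF 50 vs HFD the members lie between −0.30 and −0.18 in all classes with members while other genes lie between −0.045 and 0.031.

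Other genes that feed or build the chain were examined as lists. Among the electron carriers and other routes to ubiquinone, 2 of 11 genes passed the adjusted p as lower in PRF 50 vs HFD (3.59% of all genes were called), 6 were lower at an unadjusted p under 0.05 (54.5%, against 11.8%), and the median was −0.27. They were Gpd2, the mitochondrial glycerol phosphate dehydrogenase, at −0.88 (SE 0.15, adjusted p = 0.0322), and Etfdh, which passes electrons from fatty-acid oxidation to ubiquinone, at −0.60 (SE 0.11, adjusted p = 0.0373). Etfdh was at 6.87, 6.99 and 6.93 in ND, 7.21, 7.36 and 7.36 in HFD and 6.53, 6.85 and 6.78 in PRF 50. The HFD mice were above all others and the PRF 50 mice below all others. Cytochrome c itself, Cycs, differed by −0.48 (SE 0.10, adjusted p = 0.0545), and Etfa, part of the flavoprotein that hands electrons to Etfdh, by −0.27 (adjusted p = 0.209). In HFD vs ND the median of the list was 0.16 and in PRF 50 vs ND −0.21, with 0 genes past the adjusted p in both, and 3 higher and 1 lower, respectively, at an unadjusted p under 0.05 (7.82% and 6.44% of all genes were). The call of Gpd2 was lost without HFD 2, HFD 3, PRF 50 3 or PRF 50 10 and with no minimum level, and that of Etfdh without any 1 of the 6 mice, with quantile normalization and with no minimum level.

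In the citric acid cycle, which supplies NADH and succinate, the median over 13 genes was 0.13 in HFD vs ND, −0.33 in PRF 50 vs HFD and −0.14 in PRF 50 vs ND. Suclg2, a subunit of succinyl-CoA ligase, was lower in PRF 50 than in HFD past the adjusted p, at −0.50 (SE 0.099, adjusted p = 0.0428). At an unadjusted p under 0.05, 10 of the 13 were lower (76.9%, against 11.8% of all genes). Suclg2 lost its call without any 1 mouse other than PRF 50 9, with quantile normalization, with the trend on length and GC content removed and with no minimum level. Citrate synthase, Cs, differed by −0.31 (adjusted p = 0.159) and malate dehydrogenase, Mdh2, by −0.36 (adjusted p = 0.0661). The genes of mitochondrial fatty-acid oxidation had the lowest median of the mitochondrial lists, −0.53 over 14 genes in PRF 50 vs HFD, with 7 past the adjusted p, all lower, against 3.59% of all genes called. Decr1, which handles unsaturated fatty acids, was at −0.71 (SE 0.085, adjusted p = 0.0150), and the enoyl-CoA isomerase Eci1 at −0.80 (SE 0.11, adjusted p = 0.0212). In HFD vs ND this list had a median of 0.30, with Hadh (0.71, adjusted p = 0.0330) and Cpt1a (0.60, adjusted p = 0.0483) past the threshold, which 1.33% of all genes passed. Hadh lost this call with no minimum level and without any 1 mouse other than ND 6, and Cpt1a without any 1 of the 6 mice, in the fit of all 9 mice and with no minimum level. In PRF 50 vs HFD, Decr1 and Eci1 were not called without HFD 2, HFD 3 or PRF 50 3. Its PRF 50 vs ND median was −0.22, with 0 past the adjusted p and 2 lower at an unadjusted p under 0.05 (14.3%, against 6.44% of all genes). Whether the lists differ from each other or from the respiratory chain genes was not tested.

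The assembly factors, proteins that help to build the complexes without staying in them, had medians in PRF 50 vs HFD of −0.17 for complex I (14 genes), −0.13 for complex II (4 genes), −0.17 for complex III (6 genes), −0.14 for complex IV (25 genes) and −0.16 for complex V (4 genes). In each of the 5 lists 0 genes passed limma's adjusted p and 0 were higher at an unadjusted p under 0.05, while 6, 0, 2, 6 and 1 were lower (0 to 42.9%, against 11.8% of all genes). In HFD vs ND, where 5 genes were tested for complex III, their medians were 0.060, 0.25, 0.16, 0.029 and 0.11, all above 0. Ubiquinone synthesis had a median of −0.24 in PRF 50 vs HFD over 13 genes. The defence against reactive oxygen in mitochondria had −0.29 over 9 genes, with 1 past the adjusted p (11.1%, against 3.59% of all genes). For the carriers of adenine nucleotides, phosphate and protons the median was −0.12 over 7 genes. The 77 proteins of the mitochondrial ribosome, which translates the subunits encoded in mitochondrial DNA, had a median of −0.12 with 0 past the adjusted p and 9 lower at an unadjusted p under 0.05, a share of 11.7% that is the background of 11.8%. The 77 proteins of the cytosolic ribosome, also short and abundant, had 0.078 in PRF 50 vs HFD, −0.31 in HFD vs ND and −0.26 in PRF 50 vs ND. Ucp2, a carrier of the inner membrane that is also found in macrophages, was at 3.43, 3.90 and 4.07 in ND, 3.63, 4.85 and 4.57 in HFD and 5.37, 4.91 and 4.50 in PRF 50. The PRF 50 mice were above all ND mice and overlapped with the HFD mice (1.13 in PRF 50 vs ND, SE 0.24, adjusted p = 0.107).

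**Figure D5:**
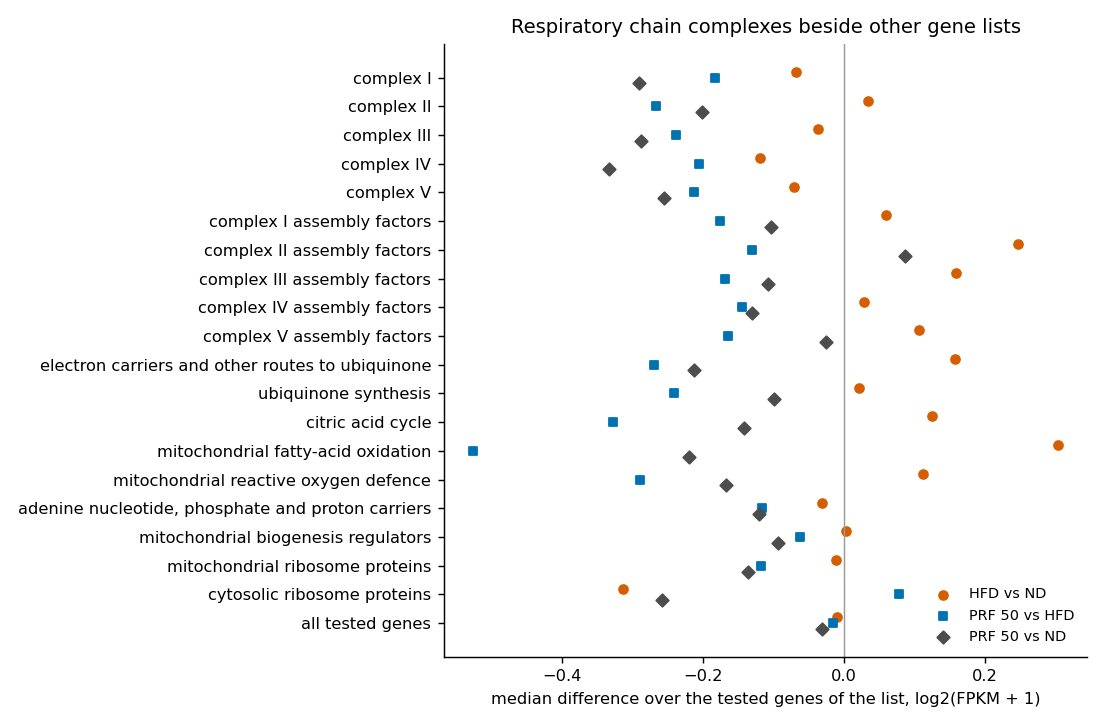
Points are the median differences over the tested genes of each list on the log2(FPKM + 1) scale in the 3 comparisons, from limma fits of 6 livers each. The 5 complexes lie between −0.27 and −0.18 in PRF 50 vs HFD, fatty-acid oxidation at −0.53 and the cytosolic ribosome at 0.078.

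The regulators known to drive transcription of chain genes had small medians, with larger differences in single genes. The median of the list was −0.062 in PRF 50 vs HFD over 20 genes, and 0.0029 in HFD vs ND and −0.093 in PRF 50 vs ND over 21 genes each. Ppargc1a, a coactivator of mitochondrial genes, was low at 1.05, 1.19 and 1.05 in ND, 1.67, 1.23 and 1.23 in HFD and 1.16, 1.30 and 1.32 in PRF 50 (−0.12 in PRF 50 vs HFD, adjusted p = 0.703). Esrra, Gabpa and Nrf1, whose letters are among those searched for above, were not called in PRF 50 vs HFD, at −0.054 (adjusted p = 0.806), −0.088 (adjusted p = 0.64) and 0.19 (adjusted p = 0.397). Tfam, which packs and transcribes mitochondrial DNA, was at 3.68, 3.71 and 3.79 in PRF 50 and between 3.762 and 4.055 in the other livers (−0.24 from HFD, adjusted p = 0.164). Ppara, the receptor that controls fatty-acid oxidation in liver, was at 6.18, 6.26 and 6.27 in HFD, above all ND and PRF 50 livers, with 0.59 in HFD vs ND (adjusted p = 0.0521) and −0.52 in PRF 50 vs HFD (adjusted p = 0.083). The deacetylase Sirt3 differed by −0.31 in PRF 50 vs HFD (adjusted p = 0.16). Past the adjusted p in HFD vs ND was Myc, at −1.26 (SE 0.20, adjusted p = 0.0318) and further below 0 with a pseudocount of 0.1, a call lost without ND 6, ND 7, HFD 2 or HFD 3 and with no minimum level. It was too low to be tested in PRF 50 vs HFD. In PRF 50 vs ND it differed by −0.84 (adjusted p = 0.0914), and the coactivator Ppargc1b by −0.32 (adjusted p = 0.411).

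The makeup of the samples was followed with cell markers. Hepatocyte markers were high in all 9 livers, led by Apoa1 at a mean of 9560 FPKM, and summed over 11 genes to between 25600 FPKM in ND 9 and 37300 in ND 6. Alb was listed at 0 in every liver, although hepatocytes express it, so a gene listed at 0 here may still be transcribed. The markers of Kupffer cells and macrophages were higher in PRF 50 than in HFD in all 10 of 10 genes, 8 of them past the adjusted p (3.59% of all genes were called), with a median of 1.39. Their summed level was 76.3, 142 and 197 FPKM in ND, 98.1, 167 and 167 in HFD and 560, 308 and 371 in PRF 50, and Cd5l was the most abundant. The low sums of ND 6 and HFD 1 were in the livers with the highest subunit levels, and all 3 PRF 50 sums were above those of the other 6 livers. This inverse order did not hold throughout. PRF 50 9 had the lowest sum of its group (308) and also the lowest subunit median (−0.25). ND 9 was above ND 7 in both the sum (197 and 142) and the subunit median (0.025 and −0.036). ND 6 and HFD 1 also held the highest hepatocyte marker sums, at 37300 and 34400 FPKM. The PRF 50 livers, with the lowest subunit levels, came next at 30600, 31700 and 29700 FPKM. ND 7, ND 9, HFD 2 and HFD 3 were lower, at 27400, 25600, 28100 and 26000. The part of macrophages or of hepatocytes in the subunit values was not tested.

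Endothelial markers summed over 9 genes to between 25.4 FPKM in HFD 1 and 111 in ND 9 (most abundant Clec4g), and stellate cell markers over 9 genes to between 64.5 in ND 6 and 145 in PRF 50 10 (most abundant Dcn). Cholangiocyte markers lay between 25.6 and 41.5 FPKM over 6 genes, led by Spp1, lymphocyte markers between 2.24 and 7.78 over 7 genes, led by Ptprc, and red cell markers between 238 and 571 over 5 genes, led by Hbb-b1. Adipocyte markers were at or near 0 with Lep, Plin1 and Ucp1 at 0 in all livers, but summed to 7.53 FPKM in HFD 2 and 15.5 in HFD 3, mainly through Cfd. None of these sums, all of which are small beside those of hepatocyte markers, put the 3 PRF 50 livers apart from the other 6, but Ptprc alone did. It was at 0.89, 1.002 and 1.055 in ND, 0.865, 1.196 and 1.228 in HFD and 2.29, 1.707 and 1.747 in PRF 50, which is 0.82 in PRF 50 vs HFD (SE 0.19, adjusted p = 0.0627), and its part in the subunit values was not tested.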

How the data were processed

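Liver RNA of 9 mice in 3 groups of 3 was analysed, with groups taken from the sample labels and 1 library per mouse. Adapters and poor reads were removed by the authors with FASTX_Trimmer and BBMap. Mapping was done by TopHat on mm10, both named in the submitters' processing notes. FPKM came from Cufflinks, with a geometric normalization that the authors credit to EdgeR. The deposited values are on a log2 scale and were read as log2(FPKM + 1), because the lowest value is 0. No read counts are among the deposited values, and the counting error is unknown. Relative depths, estimated from the most common ratio of values under 0.2 FPKM between livers, lay between 0.976 and 1.61 of that of HFD 1.

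Each comparison was fitted with limma 3.58.1 in R 4.3.3 (lmFit, eBayes with a trend, two-sided) on the deposited values of the 6 mice concerned, for all genes whose mean over them reached 1 FPKM. Adjusted p-values are Benjamini-Hochberg values over all genes tested, and a gene passes under 0.05. Every p is from these fits, over separate mice. The fit was checked on simulated data. Lists were described by counts and medians, with no test. Summaries, intervals and plots were made in Python 3.11.15.

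Named with values were, in each complex and comparison, the 2 members with the smallest p, the most abundant member of each complex, 12 core subunits, the tissue isoforms, and from 4 of the other lists the 2 genes with the smallest p, with 8 further genes of these lists. Ndufs5 and the genes named for their place outside the complexes are exceptions, and some genes that the rule takes are not reported here. The members and lists were chosen with earlier results of these data known. Positions, lengths and GC content came from GENCODE M21 (GRCm38), with a position for 81 of 83 members, and promoters from RefSeq.

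Tried as alternatives were a single fit of all 9 mice, 0.1 as the pseudocount, a minimum of 10 FPKM or no minimum, quantile normalization, median-of-ratios scaling, eBayes without a trend, removal of a trend on length and GC content, leaving out each mouse, and leaving out Ndufa4l2, Cox7a2l, Atp5s and Atp5sl. Leaving out ND 6 and HFD 1 together, the counts at an unadjusted p, and the order of group means without ND 6 came in once the values were known.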

Additional observations from a re-analysis of the deposited data

How the results depend on the processing

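No paired analysis was possible because the groups share fewer than 2 mouse numbers and the numbers only name animals. Over all alternatives the median difference of the members shifted by less than 0.152, the SD within groups of the median per liver. That SD is not the error of a difference between groups, so this is no measure of stability. In HFD vs ND the median changed sign, from −0.062 to 0.064 without ND 6. It stayed below 0 in both comparisons with PRF 50. In PRF 50 vs HFD it was between −0.26 and −0.12, and in PRF 50 vs ND between −0.37 and −0.15, the values nearest 0 being those with quantile normalization. The single member past the adjusted p in PRF 50 vs HFD, Ndufs1, was not called with quantile normalization (0 members), without ND 6 and HFD 1 (0), or with any 1 mouse left out (0 to 0), where its difference was −0.43 to −0.39 and its adjusted p above 0.05. The members lower at an unadjusted p under 0.05 in PRF 50 vs HFD, 26 in the report, were 15 with all 9 mice in 1 fit (19.0%, against 10.2% of all genes), 15 with quantile normalization (19.0%, against 10%), 12 without ND 6 and HFD 1 (15.2%, against 10.9% of all genes), and 12 to 27 with 1 mouse left out (15.2% to 34.2%, against 8.89% to 10.9%). In PRF 50 vs ND, 12 in the report, they were 25 with all 9 mice in 1 fit (31.6%, against 7.94% of all genes), 18 with eBayes without a trend (22.8%, against 6.47%), 8 with quantile normalization (10.1%, against 5.85%), 4 without ND 6 and HFD 1 (5.06%, the same as all genes), and 1 to 21 with 1 mouse left out (1.27% to 26.6%, against 5.03% and 5.2% of all genes in those fits). Causes were not tested.

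Of the differences of named genes, Sdhd in HFD vs ND (0.049) changed sign without ND 7 (−0.029), without HFD 1 (−0.052) and without ND 6 and HFD 1 (−0.023), with −0.052 to 0.11 over all mice left out in turn. Atp5e in HFD vs ND (−0.14) changed sign with the trend on length and GC content removed (0.025) and without ND 6 (0.037), with −0.23 to 0.037 over all mice left out in turn. Neither was called. With a pseudocount of 0.1, Myc, HFD vs ND (−2.25) and Ndufa4l2, HFD vs ND (−0.70) lay further from 0 than with a pseudocount of 1. Each gene of the other lists that is named in the report as past the adjusted p lost the call with at least 1 mouse left out. In HFD vs ND the differences then were 0.67 to 0.78 for Hadh, 0.56 to 0.66 for Cpt1a and −1.41 to −1.08 for Myc. With all mice they were 0.71, 0.60 and −1.26. There are 3 mice a group, and without read counts the error of low values such as those of Ndufa4l2 is unknown.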
